A study of Mus musculus with 2 samples.

Results

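Binding of Ebf1 was examined around 4 genes known for heat production in brown fat, Ucp1, Ppargc1a, Prdm16 and Dio2, in mature 3T3-L1 adipocytes. The loci held 16 of the 34534 Ebf1 peaks in the deposited list, and 3 of the 4 loci held any. Peaks were assigned by position alone, although the members were chosen with earlier results of these data known. A peak belonged to a locus when its centre lay in a fixed mm9 interval, which was chr8:85764001-85873000 for Ucp1, chr5:51795001-51995000 for Ppargc1a, chr4:153640001-154061000 for Prdm16 and chr12:91912001-92028000 for Dio2. The Ppargc1a interval held 10 peaks, the Ucp1 interval 5, the Prdm16 interval 1 and the Dio2 interval 0.

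The peaks come from 1 chromatin immunoprecipitation (ChIP-seq) library of 3T3-L1 cells, a mouse fibroblast line that becomes fat-storing when given the hormonal mixture MDI. Fixation with 1% formaldehyde followed 10 days after MDI, and Ebf1-bound chromatin was pulled down with a commercial anti-Ebf1 antibody. The labels name no further genotype or treatment, and a whole cell extract made without antibody, the other library, was not analysed here. With 1 library from 1 cell line there is no replicate error, no test between conditions, and no expression value with which to check how far the cells had become fat cells or whether the 4 genes were transcribed.

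Ebf1 is a helix-loop-helix transcription factor with known roles in B cell and adipocyte development. Brown and beige fat cells make heat by letting protons leak across the inner mitochondrial membrane, and cold switches this on through noradrenaline, beta-adrenergic receptors and cyclic AMP. Ucp1 encodes the proton channel itself. Ppargc1a encodes a coactivator that raises mitochondrial genes, Prdm16 a coregulator that sets brown fat identity, and Dio2 the deiodinase that turns thyroxine into the active thyroid hormone inside the cell. 3T3-L1 cells are generally used as a model of white rather than brown fat.

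The promoter windows of the 4 genes, 1 per gene, are shown to give the sequence that surrounds their listed starts. They run from 250 bases before to 50 bases after that start. They were taken from RefSeq on GRCm38.p6, where all 4 genes were matched, and so carry coordinates of another build than the peaks. Capitals mark CGTCA or its reverse complement TGACG, the core of the cyclic AMP response element through which adrenergic signals reach promoters, a search chosen after the sequences had been seen.
Ucp1, chr8:83290098-83290397, plus strand: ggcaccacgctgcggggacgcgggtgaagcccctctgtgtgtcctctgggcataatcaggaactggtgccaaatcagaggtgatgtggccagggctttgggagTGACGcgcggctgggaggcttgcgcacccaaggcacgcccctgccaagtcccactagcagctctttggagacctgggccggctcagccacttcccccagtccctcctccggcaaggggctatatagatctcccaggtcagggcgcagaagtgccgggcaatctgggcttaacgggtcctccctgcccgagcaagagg
Ppargc1a, chr5:51567676-51567975, minus strand: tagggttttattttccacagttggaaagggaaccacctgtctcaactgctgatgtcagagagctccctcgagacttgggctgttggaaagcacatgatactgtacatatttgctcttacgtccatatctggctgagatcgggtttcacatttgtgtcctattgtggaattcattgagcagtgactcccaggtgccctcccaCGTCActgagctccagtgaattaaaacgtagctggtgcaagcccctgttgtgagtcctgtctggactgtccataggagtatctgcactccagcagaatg
Prdm16, chr4:154636824-154637123, minus strand: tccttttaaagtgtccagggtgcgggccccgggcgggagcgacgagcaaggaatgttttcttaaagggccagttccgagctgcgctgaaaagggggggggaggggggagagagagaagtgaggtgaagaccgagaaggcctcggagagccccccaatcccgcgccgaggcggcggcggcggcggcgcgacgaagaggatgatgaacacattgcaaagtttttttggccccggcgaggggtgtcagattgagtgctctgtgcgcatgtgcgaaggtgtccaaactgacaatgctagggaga
Dio2, chr12:90738989-90739288, minus strand: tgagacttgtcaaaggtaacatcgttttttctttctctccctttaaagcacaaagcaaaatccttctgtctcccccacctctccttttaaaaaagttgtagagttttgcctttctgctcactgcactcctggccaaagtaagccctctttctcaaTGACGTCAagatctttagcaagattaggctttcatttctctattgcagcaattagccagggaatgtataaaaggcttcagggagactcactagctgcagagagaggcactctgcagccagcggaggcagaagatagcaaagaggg

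The Dio2 window held the full palindrome TGACGTCA, which contains both orientations of the core and was present in 1.79% of 32851 RefSeq promoter windows of the same length. The Ucp1 and Ppargc1a windows held 1 core each, and the Prdm16 window held none. The core in either orientation was present in 20.8% of all windows. The core of the Ebf palindrome, CCCNNGGG, was in none of the 4 windows and in 13.7% of all windows. The longer form, with a T before that core and an A after it, was likewise in none of the 4 and in 0.904% of all windows. Each of these Ebf motifs equals its own reverse complement, so 1 search covered both strands. No match says only that these letters are not in these windows, and any other start sites of the genes were not searched. No mm9 sequence was used, so motifs inside the peaks themselves were not examined.

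The interval ends needed a further check, since no mm9 gene annotation was used. With 50 kb removed from each end, an inner span of 9 kb was left for Ucp1, 321 kb for Prdm16 and 16 kb for Dio2. The GRCm38 gene lengths were 8.11 kb for Ucp1, 321 kb for Prdm16 and 14.5 kb for Dio2, so these 3 inner spans were about as long as their genes. For Ppargc1a the inner span was 100 kb, while the RefSeq gene covered 662 kb with all its transcripts, so its interval holds a part of the annotated gene and its start sites could not be placed. The positions below are therefore given relative to the inner span and not to a gene start.

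At Ucp1, the 5 peaks fell into 2 groups on either side of the inner span, and none lay inside it. The peak with the highest score of all 16 was here, at chr8:85802251-85802825, 11.2 kb before the inner span. The deposited score is a whole number from 3 to 597 that ranks peaks, whose meaning is not stated. This peak scored 119, against a list median of 13, which placed it at rank 798 of the list, among the top 2.35%. It was 575 bp wide, and 6.26% of the 687 peaks of that width scored as high or higher.

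A second Ucp1 peak, at chr8:85808176-85808625, scored 28 and lay 5.38 kb before the inner span. The third, at chr8:85811601-85811925, scored 15 and was the nearest of the 5, ending 2.08 kb before the inner span. RefSeq places Ucp1 on the plus strand, so these 3 peaks lay on the side of the inner span where the gene begins. That side also faces the neighbouring coding gene Tbc1d9. RefSeq places both Tbc1d9 and Elmod2 within 50 kb of Ucp1, and which gene the peaks of this interval belong to was not tested. The main known enhancer of Ucp1 lies a few kilobases upstream of its start, but whether the third peak covers it was not tested, because neither was placed on a common build.

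Scores of the 3 peaks on that side decreased towards the inner span, from 119 to 28 to 15, and so did their widths, from 575 to 450 to 325 bp. The other Ucp1 peaks formed a close pair past the inner span, on the side of the neighbouring coding gene Elmod2. The first of the pair, at chr8:85856401-85856850, scored 38 and lay 33.4 kb past the inner span. Its partner, at chr8:85857051-85857350, scored 15, with 200 bp between them. All 5 peaks scored 13 or more, as did 50.6% of all peaks.

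At Ppargc1a, the 10 peaks were spread over both ends of the interval, with 3 before the inner span, 2 within it and 5 past it. Of the 10, 5 were below the list's median score and 2 reached 55, the lowest score of its top 10%. The strongest, at chr5:51976176-51976775, scored 70 and was 600 bp wide, 31.2 kb past the inner span. RefSeq places Ppargc1a on the minus strand, so that side is the one towards its upstream part. The other, at chr5:51822851-51823375, scored 55 and lay 21.6 kb before the inner span.

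The 2 Ppargc1a peaks inside the inner span formed a pair with 75 bp between them. The stronger, at chr5:51912151-51912525, scored 26, and 11.9% of the 2104 peaks of its width scored as high or higher. Its partner, at chr5:51912601-51912800, scored 7, the lowest of the 16, and had the narrowest width in the list, 200 bp.

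Another Ppargc1a pair began 3.73 kb past the inner span, at chr5:51948726-51949100 with a score of 16 and at chr5:51949526-51949825 with a score of 11, separated by 425 bp. In each of the 3 close pairs, at Ucp1 and Ppargc1a, the first peak in chromosome order had the higher score.

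The remaining 4 Ppargc1a peaks scored at or below the median of the list. Before the inner span, chr5:51811701-51811950 scored 10 and chr5:51838401-51838725 scored 13. Near the far end of the interval, chr5:51990026-51990275 and chr5:51993901-51994150 scored 8 each. The last of these lay 0.974 kb inside the end of the interval.

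At Prdm16, an interval of 421 kb held a single peak, at chr4:154048701-154049000. It scored 13, equal to the median of the list, and was 300 bp wide, as was the median peak. It lay 37.7 kb past the inner span and 12.1 kb inside the end of the interval. RefSeq places Prdm16 on the minus strand, so the peak lay on the side where the gene begins, towards the neighbouring coding gene Actrt2. Megf6, Arhgef16 and Actrt2 all reach within 50 kb of Prdm16 in RefSeq, and which gene the peak belongs to was not tested. No peak centre lay in the 321 kb inner span, which is about the length of the gene.

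At Dio2, no peak centre lay in the 116 kb interval. The nearest listed peaks were 155 kb past the interval, at chr12:92183051-92183375 with a score of 14, and 2275 kb before it, at chr12:89637351-89637550 with a score of 9. The coding genes next to Dio2 in RefSeq are Nrxn3 and Cep128.

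**Figure D1:**
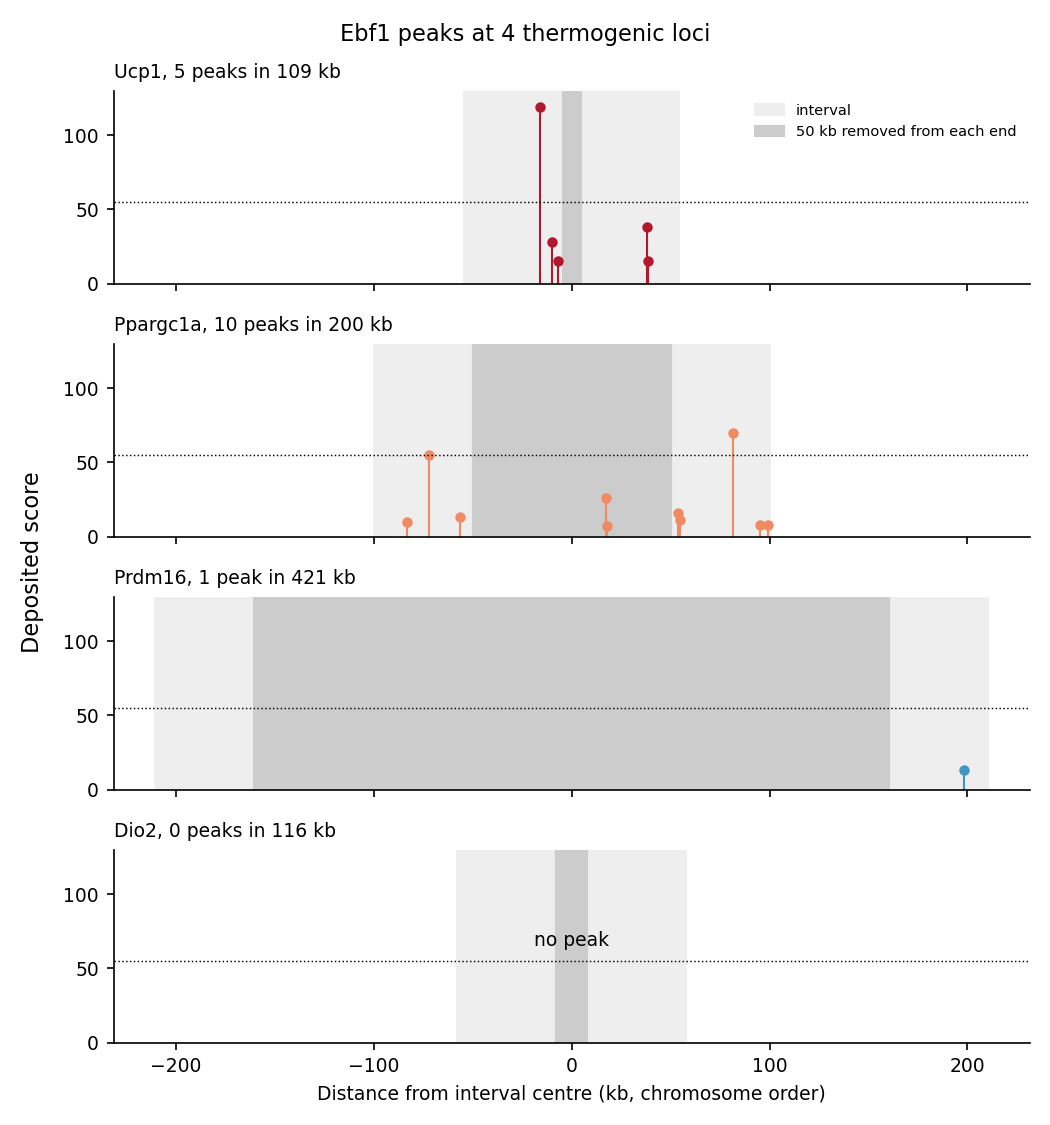
Deposited score (vertical axis) of each Ebf1 peak against the distance of its centre from the centre of the interval in kb (horizontal axis), with 1 panel per gene. Light shading is the interval, dark shading the inner span with 50 kb removed from each end, and the dotted line a score of 55. The Ucp1 peak at 119 stands above the others, the Prdm16 interval of 421 kb holds 1 peak and the Dio2 interval none.

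Just outside the intervals, the nearest peak past the Ucp1 interval, at chr8:85875201-85875575, scored 20 and lay 2.39 kb from its end, while the nearest before it was 130 kb away and scored 8. The nearest peaks outside the Ppargc1a interval scored 8 on both sides, at 67.4 kb before it and 18.3 kb past it. Outside the Prdm16 interval a peak with a score of 14 lay 20.5 kb before it and one with a score of 17 lay 140 kb past it. Widening each interval by 50 kb on both sides gave 6 peaks at Ucp1, 11 at Ppargc1a, 3 at Prdm16 and 0 at Dio2.

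Counts were next set against interval length. Ppargc1a held 5.00 peaks per 100 kb (exact Poisson 95% interval 2.40 to 9.20) and Ucp1 held 4.59 (1.49 to 10.7), against 1.33 over chromosomes 1 to 19 and X. Their own chromosomes held 1.68 on chromosome 5 and 1.93 on chromosome 8. Prdm16 held 0.238 peaks per 100 kb (0.00601 to 1.32), against 1.23 on chromosome 4. Dio2 held 0 (0 to 3.18), against 1.10 on chromosome 12.

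These Poisson intervals cover counting error only and are too narrow, since neighbouring peaks cluster. That of Ppargc1a lay above the density of its chromosome and of the list, while that of Ucp1 included the density of chromosome 8. For Prdm16 the upper bound was just under the density of the list and above that of chromosome 4. At the density of the list, 1.54 peaks would fall in an interval as long as that of Dio2, so a count of 0 there could not be told from the rest of the list.

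Windows of the same length, tiled over chromosomes 1 to 19 and X, gave a second background. Of 12840 windows as long as the Ppargc1a interval, 5.25% held 10 or more peaks, and the median window held 1. Of 23578 windows as long as the Ucp1 interval, 8.94% held 5 or more, and the median window again held 1. Of 6087 windows as long as the Prdm16 interval, 32.5% held 1 peak or none, and the median window held 3. For Dio2, 46.7% of 22158 windows held no peak.

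Few windows thus held as many peaks as the Ucp1 and Ppargc1a loci, while counts as low as those at Prdm16 and Dio2 were common. Assembly gaps, sequence to which reads cannot be assigned and regions without genes were not left out of the windows or the density. Each interval, in contrast, was placed at a gene. Of windows as long as the Ucp1 and Ppargc1a intervals, 48.3% and 33.9% held no peak. On chromosome 8 alone, 15.3% of windows held as many peaks as Ucp1. Among windows with at least 1 peak, 17.3% matched Ucp1 and 7.94% matched Ppargc1a. When peaks scoring under 13 were left out, 2.95% of windows matched the 5 at Ucp1, 8.77% matched the 5 at Ppargc1a, and 53.4% held no more than the 1 at Prdm16.

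**Figure D2:**
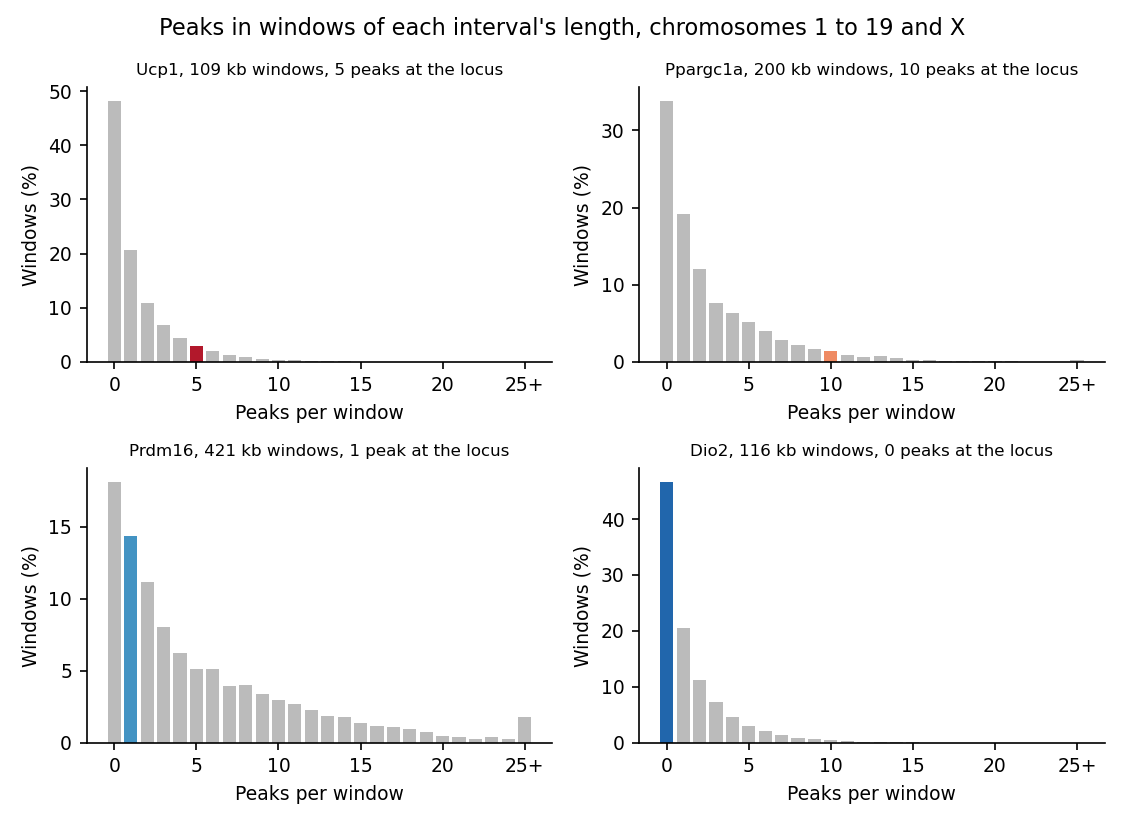
Percent of windows (vertical axis) by the number of Ebf1 peaks they hold (horizontal axis, 25 or more joined), for windows as long as each interval. The coloured bar holds the windows with the same number of peaks as the locus, 5 for Ucp1, 10 for Ppargc1a, 1 for Prdm16 and 0 for Dio2.

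By the score of their strongest peak the loci took another order. The strongest Ucp1 peak, at 119, was matched or passed in 3.13% of windows of that length (5.34% on chromosome 8), and the strongest Ppargc1a peak, at 70, in 13.6%. The Prdm16 peak, at 13, was matched or passed in 60% of windows. A score of 55 or more, the top 10% of the list, was reached by some peak in 11.1% of Ucp1-length, 18% of Ppargc1a-length and 30.2% of Prdm16-length windows. Ucp1 thus had fewer peaks than Ppargc1a, in an interval of 109 kb against 200 kb, and a higher top score. Per 100 kb they were close, at 4.59 and 5.00. With peaks scoring under 13 left out, each held 5 peaks, or 4.59 and 2.50 per 100 kb. Without replicates the difference between their scores could not be tested.

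Taken as a list, the 16 peaks had scores from 7 to 119 with a median of 15, against a median of 13 in the whole list. At least 55 was scored by 3 of 16 (18.8%, exact Clopper-Pearson 95% interval 4.05 to 45.6), against 10.2% of all peaks. These 3 were the peaks at 119, 70 and 55, and the last sits on that threshold. The list's median was reached by 11 of 16 (68.8%, 41.3 to 89.0), against 50.6% of all peaks. Both intervals include the share of the whole list. They count the 16 peaks as independent, although they come from 3 loci, and are therefore too narrow.

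**Figure D3:**
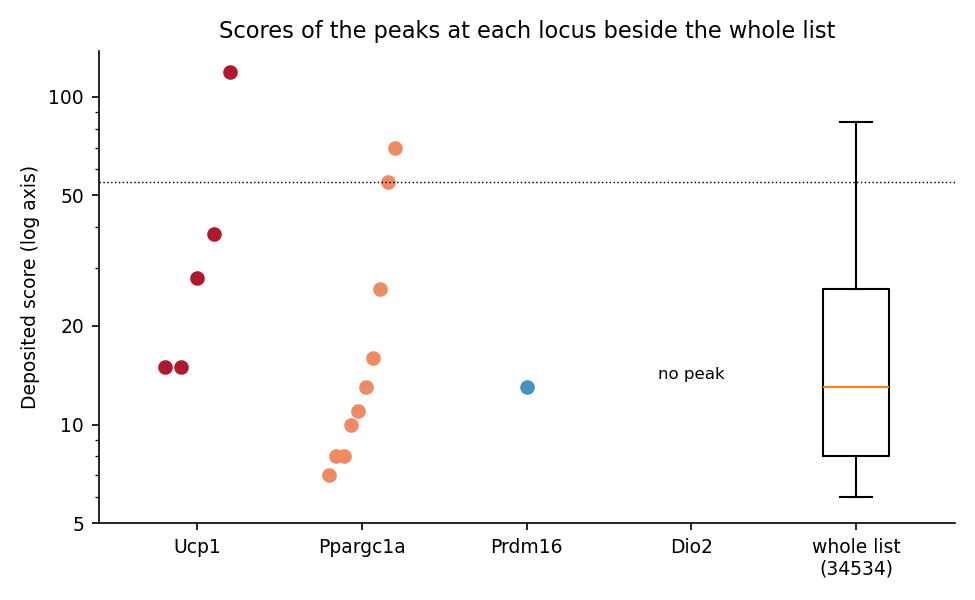
Deposited score on a log axis of each peak at the 4 loci (points), beside the whole list of 34534 peaks (box, quartiles of 8 and 26 around a median of 13; whiskers, 5th and 95th percentiles). The dotted line is a score of 55. The 5 Ucp1 peaks lie at 15 or above, and the 10 Ppargc1a peaks run from 7 to 70.

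The median score was higher at wider widths over the range of the 16 peaks, so each peak was set beside others of its width. Widths of the 16 ran from 200 to 600 bp with a median of 325 bp, against 300 bp in the whole list. Of the 16, 8 scored above the median of their own width, 2 at it and 6 below it. A median by construction has about as many peaks above it as below, and the split in the whole list was not counted. The strongest Ppargc1a peak scored 70 against a median of 71 at 600 bp. The strongest Ucp1 peak scored 119 against a median of 61 at 575 bp. The high score of the Ppargc1a peak was thus ordinary for its width, and that of the Ucp1 peak was in the upper part.

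**Figure D4:**
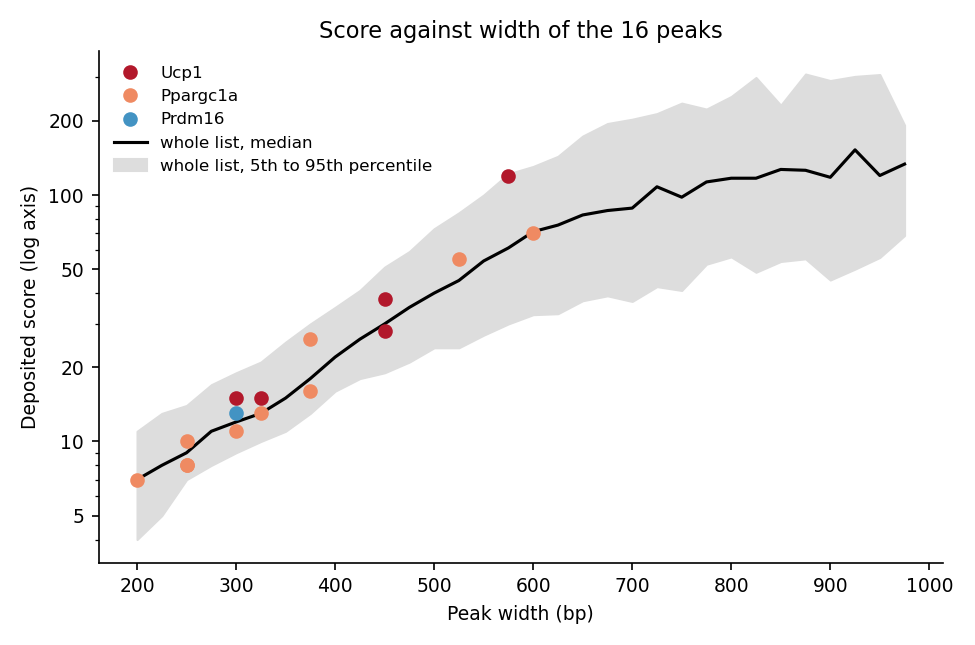
Deposited score on a log axis against peak width in bp for the 16 peaks (points, by gene), with the median (line) and the 5th to 95th percentiles (shading) of the whole list at each width held by at least 20 peaks. The points follow the line, and the Ucp1 peak at 575 bp and 119 lies above the median of 61 for its width.

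The second deposited value, a whole number from 0 to 15 whose meaning is also not stated, was above 0 at 13 of 16 peaks, against 70.2% of all peaks. It was highest at the stronger peak of the inner Ppargc1a pair, at 5, a value that 5.47% of all peaks reached or passed. It was 4 at the first peak of the next pair. At the strongest Ucp1 peak it was 0. Among the 1214 peaks of the list with a score of 100 or more, 70 had a second value of 0, or 5.77%, and among the 16 peaks of the list that score exactly 119 the share was 18.8%. The second value was 3 at the Ppargc1a peak scoring 70 and 1 at the one scoring 55.

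At Ucp1 and Ppargc1a many peaks had a close neighbour, with longer gaps between the groups. The longest gap between peaks was 44.5 kb at Ucp1 and 73.4 kb at Ppargc1a, against a median gap of 21.8 kb in the list. Of the 16 peaks, 6 had another within 1 kb, the 3 close pairs named above, against 15.9% of all peaks. Joining centres no more than 12500 bp apart gave 2 clusters with all 5 Ucp1 peaks and 4 clusters with 8 of the 10 Ppargc1a peaks. In all, 13 of 16 had a neighbouring centre within that distance, against 56.2% of all peaks. The 3 without one were the Ppargc1a peaks scoring 13 and 70 and the Prdm16 peak. Peaks of 1 locus are neighbours and not independent, so these shares are descriptions.

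Dio2 and Prdm16 lay in long stretches without a peak. The stretch over Dio2, from 89637551 to 92183050 on chromosome 12, was 2546 kb long, or 117 times the median gap of 21.8 kb between neighbouring peaks. It was the longest of 1303 gaps on that chromosome and ranked 18 of 34136 in the list. The stretch over Prdm16, from 153619726 to 154048700 on chromosome 4, was 429 kb long, which 3.38% of gaps equalled or passed. Long gaps fill much of the genome, and gaps at least as long as that at Prdm16 made up 37.0% of the span examined, against 2.34% for gaps as long as that at Dio2. Assembly gaps and sequence to which reads cannot be assigned were not left out, and their part in these stretches was not tested. The longest stretches reaching into the other loci were 168 kb at Ucp1 and 84.0 kb at Ppargc1a.

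**Figure D5:**
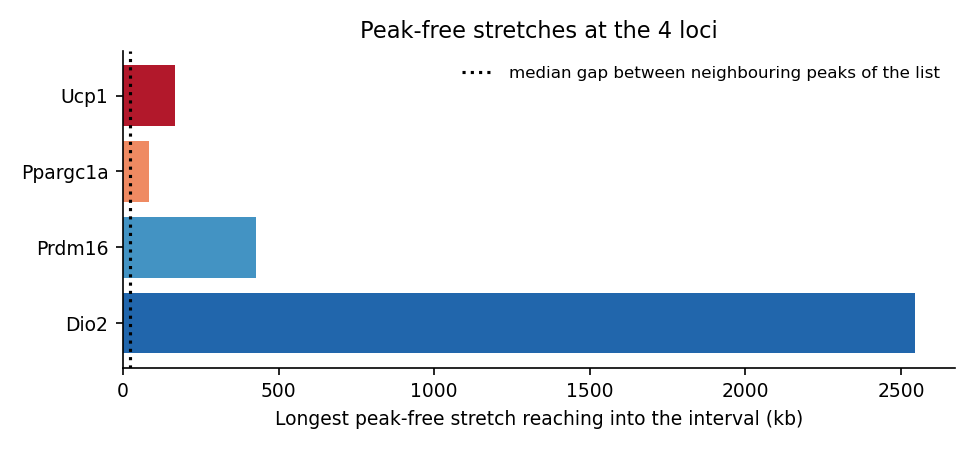
Length in kb of the longest stretch without an Ebf1 peak that reaches into each interval (bars), with the median gap of 21.8 kb between neighbouring peaks of the list (dotted line). The stretch over Dio2 is 2546 kb long and that over Prdm16 429 kb.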

How the data were processed

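Ebf1-bound regions of mature 3T3-L1 adipocytes were read from 1 deposited peak list. Per the labels' protocols, ligation products of 275 to 700 bp were gel purified and amplified in 18 PCR cycles. The submitters' processing notes name the build mm9 and the tool SAMtools. The aligner, the peak caller, its threshold and any use of the whole cell extract were not given in the sources used here. Each peak carries 2 score columns that the authors deposited without a header. The first ranks peaks here, and neither is treated as a read count. Read depth is unknown, so weak peaks have unknown precision.

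Peaks sit on a grid of 25 bases whose starts and ends fit 1-based positions with both ends included. Members, lists and thresholds were chosen with earlier results of these data known. The 4 genes and every member peak are named where an interval held few peaks, which all did. Densities used the span from first to last peak of each chromosome, and windows lay wholly inside it. Strong peaks are the top 10% by score, 55 or more. The gene table and promoters are RefSeq GRCm38.p6 and gave names, neighbours, lengths, strands and promoter sequence. Other thermogenic genes and motifs in peaks were planned and not analysed, since no mm9 annotation or sequence was used. As a check of the code alone, peaks planted inside the cleared intervals on simulated positions were counted back at 4 of 4 loci. No peak was planted at Dio2, so that locus had none to recover. Computation used scipy 1.17.1, pandas 2.3.3 and numpy 2.4.6 under Python 3.11.15, with figures from matplotlib 3.10.9.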

Additional observations from a re-analysis of the deposited data

How the results depend on the processing

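Of 90 alternative values, 57 counted as unmoved and 33 as moved. Unmoved means within 1.5 times for counts, equal for highest scores, and within the exact 95% interval for densities, shares, percentages and the median. The cause was not tested beyond what each alternative leaves out by construction. Some outcomes were fixed in advance, so the tally is not a measure of robustness. Trimming or filtering could only leave 0 peaks at Dio2, and neither Prdm16 nor Dio2 could form a cluster. Leaving out peaks below the median score could not change the highest scores. The 100% for Prdm16 among windows with a peak also held by construction. Counting any overlap with an interval changed no value. With intervals widened by 50 kb, Prdm16 had 3 peaks and a highest score of 17. With 50 kb removed from each end, Ucp1 and Prdm16 had 0 peaks and 0 per 100 kb (so no highest score), Ppargc1a had 2 peaks, 2 per 100 kb and a highest score of 26, and the share at a score of 55 or more was 0%. At or above the median score, Ppargc1a kept 5 peaks. In the top 10% by score, Ucp1 had 1 peak (0.917 per 100 kb), Ppargc1a 2 (1 per 100 kb) and Prdm16 0 (0 per 100 kb). A joining distance of 5 kb gave 3 clusters at Ppargc1a in place of 4, and 25 kb gave the same number of clusters at each locus but put all 10 Ppargc1a peaks in them in place of 8. Shifting windows along the chromosome moved no percentage beyond its exact interval. On the own chromosome, windows with at least as many peaks made up 15.3% for Ucp1, 7.37% for Ppargc1a and 79.8% for Prdm16. Those with as high a top score made up 5.34%, 16.1% and 58.2% in the same order. Those with at most as many peaks made up 37.4% for Prdm16 and 51.6% for Dio2. Among windows with a peak, 17.3%, 7.94% and 100% held at least as many as Ucp1, Ppargc1a and Prdm16. With peaks at or above the median score these were 2.95%, 8.77% and 60.01%, and at most as many were held by 53.4% for Prdm16 and 65.4% for Dio2. The percentages for at most as many peaks were added after seeing the data. With a single library there was no replicate to leave out. No paired analysis was possible because 1 library was analysed.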

Other observations

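Beyond the intervals, the 500 kb on either side of each were also counted, a choice made after the values were seen. The 500 kb past the Ucp1 interval held 13 peaks, 2 of them at a score of 55 or more. The strongest, at chr8:86267801-86268425, scored 191, above the 119 inside the interval, and lay 395 kb from it. The 500 kb before the Ucp1 interval held 9 peaks, with none above 35.

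Before the Ppargc1a interval the same distance held 13 peaks, with a highest score of 123 at chr5:51432151-51432700, 363 kb away. Past it, towards the upstream part of the RefSeq gene, lay 10 peaks with none above 39.

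Around Prdm16 there were 4 peaks before and 8 past the interval, with 1 on each side at a score of 55 or more. These were chr4:153402676-153403225 with 88 and chr4:154522801-154523375 with 79. Around Dio2 there were 0 before and 3 past, with none above 21. Which genes these outer peaks lie near was not analysed here.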
